A study of Schizosaccharomyces pombe with 4 samples.

Results

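The genes described here encode the proteins of the large (60S) ribosomal subunit of the fission yeast Schizosaccharomyces pombe, including the stalk proteins P0, P1 and P2. They were taken as the protein-coding genes of the ASM294v3 annotation whose symbol begins with rpl or rpp and a digit. Of 5113 protein-coding genes, 86 matched. The annotation gives 3 of these, rpp1, rpp21 and rpp40, as subunits of RNase P or RNase MRP, which process RNA and are not ribosomal. They were set apart, which left 83 genes, 76 of the 60S body and 7 of the stalk. The gene rpl701, whose product is annotated both as an RNase MRP subunit and as L7-like, was kept with its paralog rpl702.

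By ChIP-seq the study mapped RNA polymerase II that carries phosphate on serine 5 of its C-terminal domain (Ser5P), a mark of initiating and early elongating polymerase. It compared wild-type cells with the mutant labelled ABP1d, deleted for Abp1, the fission yeast relative of human CENP-B. Cells in exponential growth in YES medium received formaldehyde (1%, 15 min), and their chromatin, sheared to 250 to 400 bp, was precipitated with a Ser5P antibody (Abcam ab5131). The series lists 4 samples, an input and a ChIP of each genotype, and each ChIP carries 1 list of intervals with a whole-number score. No strain background or further allele is given in the sources used here. The wild-type list has 3242 intervals and the ABP1d list 2851. The median interval was 4 bp wide in each list, so 1 gene can hold many, up to 17 among the 83. Every score is 200 or more, so polymerase below that level leaves a gene without an interval. Each genotype has 1 list, so there are no replicates and no test is possible, and read depth is unknown, so each difference below is one between 2 lists. The deleted gene, SPBC1105.04c (annotated as cbp1, with abp1 as a synonym), had no covered base in either list and so gives no check of the genotype labels.

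Ribosomal proteins are made in near equal amounts from many separate genes, and in rapidly growing yeast these genes are among the most heavily transcribed. In fission yeast most of them exist as a pair of copies, or paralogs, that encode the same or nearly the same protein. Their promoters carry a conserved element, the HomolD box, which takes the place of a TATA box, and often a second one upstream of it, the HomolE box.

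The HomolD box, spelled CAGTCACA, was found on either strand between 250 bp before and 50 bp after the annotated start of 54 of the 83 genes, or 65.1%. Of the 55 genes for the 40S subunit 34 had it, or 61.8%, and of all protein-coding genes 2.68%. Its position was narrow: in 48 of the 54 genes the box began 60 to 40 bp before the annotated start, and the median over the 54 genes was -50.5 bp. With the last letter left free (CAGTCAC, a form added after the sequences were seen, which lies inside every HomolD match), 76 of the 83 genes matched, or 91.6%, against 4.71% of all protein-coding genes. The HomolE box, searched on both strands as ACCCT repeated once without a gap, was found in 20 of the 83 genes, or 24.1%, in 38.2% of 40S genes and in 1.25% of all protein-coding genes. A match is a description of the sequence, and no match says only that these letters are not in the window.

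**Figure D1:**
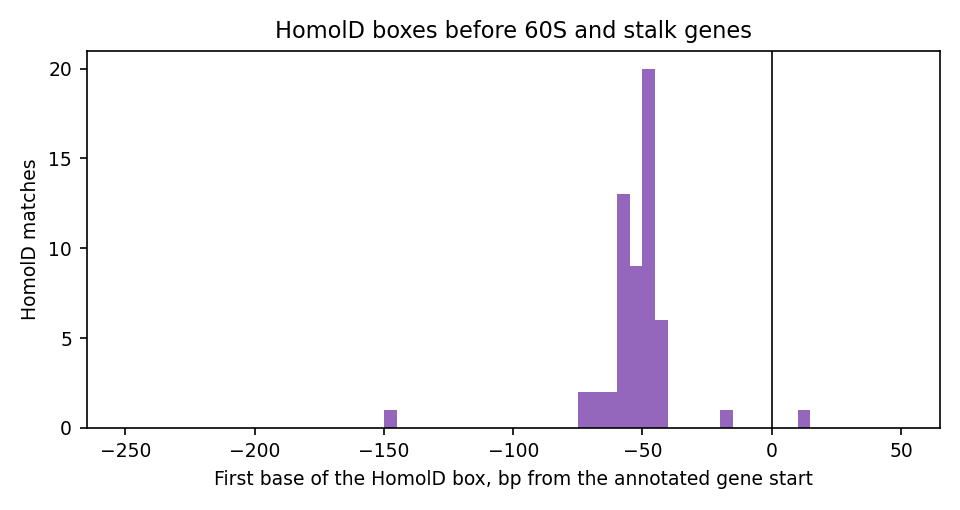
Histogram of the first base of each HomolD match (horizontal axis, bp from the annotated gene start) among the 54 matching 60S and stalk genes (vertical axis, number of matches in bins of 5 bp). Most matches lie 60 to 40 bp before the start.

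The 120 bases before the start are shown for a pair of paralogs and for 3 stalk genes whose Ser5P coverage differed, so that their boxes can be read beside it. The gene rpl101 (chrIII:612580-612699, minus strand) had intervals in both lists and its paralog rpl102 (chrII:3060429-3060548, plus strand) had none in either. Of the stalk genes, rpp0 (chrIII:1981916-1982035, minus strand) was widely covered, rpp102 (chrII:4009397-4009516, minus strand) had covered bases in wild type alone, and rpp101 (chrI:2700312-2700431, plus strand) had none. Positions are on ASM294v3, the sequences are from its RefSeq genome, written 5′ to 3′ in the direction of the gene, and capitals mark HomolD (or its 7-letter form where the full box is missing) and HomolE on either strand.
rpl101: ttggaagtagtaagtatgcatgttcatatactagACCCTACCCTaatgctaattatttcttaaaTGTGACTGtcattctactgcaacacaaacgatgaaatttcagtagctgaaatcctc
rpl102: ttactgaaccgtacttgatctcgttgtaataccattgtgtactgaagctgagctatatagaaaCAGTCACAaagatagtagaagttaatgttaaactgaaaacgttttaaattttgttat
rpp0: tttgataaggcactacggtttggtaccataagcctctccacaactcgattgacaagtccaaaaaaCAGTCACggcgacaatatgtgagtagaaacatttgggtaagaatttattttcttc
rpp102: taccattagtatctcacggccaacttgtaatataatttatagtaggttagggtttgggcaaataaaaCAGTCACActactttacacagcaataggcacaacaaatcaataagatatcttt
rpp101: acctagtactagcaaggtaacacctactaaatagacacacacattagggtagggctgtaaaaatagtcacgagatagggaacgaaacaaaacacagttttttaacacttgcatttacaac
Both rpl1 copies thus carry HomolD, on opposite strands, and rpl101 also HomolE. Over all members, 47 of the 54 genes with HomolD and 19 of the 29 without it had an interval in the wild-type list, and 43 and 19 in the ABP1d list.

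Most 60S genes carried Ser5P intervals in both genotypes. An interval met the gene body, from annotated start to annotated end, in 66 of 83 genes in wild type and in 62 in ABP1d, or 79.5% and 74.7%. Over all protein-coding genes 7.18% and 7.12% had one. Of the 55 genes for 40S proteins 48 had one in each list, or 87.3%. All 62 genes covered in ABP1d were covered in wild type too. The other 4, rpl3002, rpl3702, rpp102 and rpp203, had intervals in wild type alone, with 44, 16, 82 and 56 covered bp, where 0.939% of all protein-coding genes did, and no gene had them in ABP1d alone, where 0.880% did. Among genes covered in at least 1 list, 4 of 66 members and 48 of 412 protein-coding genes were covered in wild type alone. In ABP1d alone it was 0 of 66 and 45 of 412. Over the 83 genes the covered length summed to 22808 bp in wild type, against 24460 bp in ABP1d, or 36.3% and 38.9% of their summed length, against 2.05% and 2.29% over all protein-coding genes. At least 50% of the body was covered in 30 members in each list, and in 2.89% of all protein-coding genes in each.

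The members did not shift together between the lists. Among the 66 members covered in at least 1 list, 35 had more covered bp in ABP1d, 30 had more in wild type and 1, rpl1502, had 86 bp in both. Over all protein-coding genes 4.38% had more in ABP1d and 3.50% more in wild type, which is 54.4% and 43.4% of the 412 covered in at least 1 list. The order of the members' counts turned with the ABP1d list cut by score to the covered length of the wild-type list, to 28 with more in ABP1d and 37 with more in wild type, and was level at 33 each with intervals up to 100 bp apart joined. The median difference in covered share, ABP1d minus wild type, was 1.85 percentage points for the 66 members and 0.605 points for those 412 genes. A covered share at least 20 points higher in ABP1d was seen in 10 members, where 1.08% of all protein-coding genes had one, and at least 20 points lower in 6, where 0.900% had one. Only a covered gene can differ. Among genes covered in at least 1 list, the higher share was seen in 10 of 66 members and 55 of 412 genes. The lower share was seen in 6 of 66 and 46 of 412, so the members lay near the other covered genes. Of the 10, 6 lie in 1 stretch of chromosome III.

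**Figure D2:**
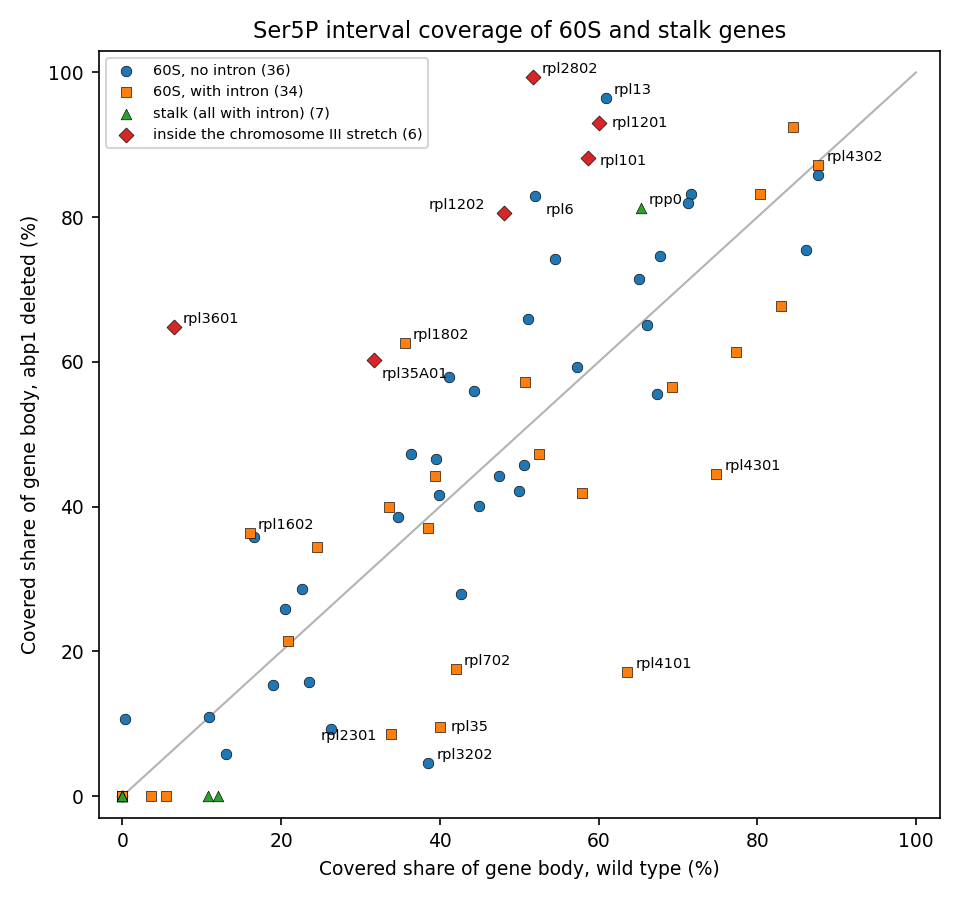
Each point is 1 of the 83 genes, with the share of its body covered by intervals in wild type (horizontal axis, %) and in ABP1d (vertical axis, %), and the line marks equal shares. Points lie on both sides of the line, the 6 genes inside the chromosome III stretch lie above it, and genes that differ by 20 points or more are named, with rpl4302 and rpp0.

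Within the ribosome the stalk recruits the GTPase translation factors to the 60S subunit: P0 binds the ribosomal RNA and carries dimers of the small acidic proteins P1 and P2. Its genes were covered very unevenly. The P0 gene rpp0 (SPCC18.14c, chromosome III, 1980536 to 1981915, minus strand) had 901 of 1380 bp covered in wild type and 1121 bp in ABP1d, or 65.3% and 81.2%. Of the 6 genes for P1 and P2 only 2 were covered in wild type and none in ABP1d. All 6 have an intron and a coding length under 450 bp. Of the 33 such members, these 6 included, 21 were covered in wild type and 17 in ABP1d. The P1 gene rpp102 (SPBC3B9.13c) had 82 covered bp in wild type, and 66 of these lie where its body overlaps trs23 on the opposite strand. The P2 gene rpp203 (SPAC1071.08) had 56 covered bp in wild type, and its whole body lies within SPAC1071.09c on the opposite strand. ChIP does not report the strand, so these bases cannot be assigned to 1 of the overlapping genes. The genes rpp101, rpp103, rpp201 and rpp202 had no covered base in either list. The longest identical run between copies of P1 or of P2 was 23 bp.

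Next to the stalk base sits uL11, encoded by rpl1201 and rpl1202, and on the other side of the subunit the mobile L1 stalk holds uL1, encoded by rpl101 and rpl102. The uL11 genes had 335 of 558 bp and 366 of 762 bp covered in wild type, and 519 bp and 614 bp in ABP1d. The gene rpl101 was covered over 58.6% in wild type and 88.1% in ABP1d, and rpl102 had no interval. These 3 covered genes lie inside the chromosome III stretch.

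Around the peptidyl transferase centre, where peptide bonds form, the genes for uL3 (rpl301 and rpl302), for the protein L10 (rpl1001 and rpl1002) and for uL2 (rpl801, rpl802 and rpl803) were all covered in both lists. Together 62.3% of their length was covered in wild type and 65.6% in ABP1d, with more covered bp in ABP1d at 5 of the 7. They also hold the highest member scores of the wild-type list: 786 at rpl802 and 768 at both rpl301 and rpl302. In the ABP1d list rpl301 and rpl302 led with 1093 each. The genes of the uL18 and uL5 proteins, which bind the 5S ribosomal RNA and enter the subunit together with it, followed with 709 at rpl502 and 706 at rpl501 in wild type. In ABP1d rpl502 and rpl501 had 624 and 614. These scores belong to intervals that meet sequence found more than once in the genome, counted in stretches of 36 bases (repeated 36-mers). Among intervals free of it the highest wild-type scores were 583 at rpp0, 581 at rpl402 and 553 at rpl401, against 201 at rpl802, 227 at rpl301, 217 at rpl502, 203 at rpl501 and no such interval at rpl302. Part of the covered length of the peptidyl transferase genes lay in repeated 36-mers too. In wild type 45 of 893 covered bp at rpl301 lay outside them, 0 of 844 at rpl302, 219 of 757 at rpl1001 and 118 of 656 at rpl1002. At rpl801, rpl802 and rpl803 it was 379 of 549, 157 of 361 and 249 of 325. Over all members 76.3% lay outside. Over the 4 uL18 and uL5 genes, rpl501, rpl502, rpl1101 and rpl1102, the covered share was 53.7% in wild type and 51.7% in ABP1d, with more covered bp in ABP1d at the rpl5 copies and in wild type at the rpl11 copies.

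Genes for proteins that line or rim the exit tunnel of the nascent chain had lower covered shares than these. Of the 12 genes rpl401, rpl402, rpl1701, rpl1702, rpl1901, rpl1902, rpl2501, rpl2502, rpl26, rpl31, rpl35 and rpl39, 11 had intervals in both lists and rpl2502 had none. Their covered share was 33.7% in wild type and 34.8% in ABP1d, with more covered bp in ABP1d at 6 and in wild type at 5. Of the 12, rpl2501, rpl2502, rpl31, rpl35 and rpl39 have an intron, while the peptidyl transferase, uL18 and uL5 genes have none. The part of introns and of repeated sequence in these shares was not tested. The remaining 49 genes had 32.2% and 34.1%, with 38 covered in wild type and 36 in ABP1d.

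Outside the chromosome III stretch the covered share exceeded that of wild type most in ABP1d at rpl13 and rpl6. The gene rpl13 (SPAC664.05, chromosome I), for eL13, had 523 of its 859 bp covered in wild type, against 829 bp in ABP1d, or 60.9% and 96.5%. The gene rpl6 (SPCC622.18, chromosome III), for eL6, had 462 of 888 bp in wild type and 737 bp in ABP1d, and lies wholly inside str2 on the opposite strand. In the other direction the difference was largest at rpl4101 (SPAC3G6.13c), for the very small protein eL41, with 253 of 398 bp in wild type and 68 bp in ABP1d. It lies wholly inside chl1 on the opposite strand. Next came rpl3202, with 38.5% in wild type and 4.62% in ABP1d, rpl35, with 40.1% and 9.59%, and rpl4301, with 74.8% and 44.5%. These encode eL32, a protein at the tunnel exit (uL29) and eL43. For rpl2301 the shares were 33.9% and 8.62%, for rpl702 42.0% and 17.6%, for rpl1101 26.3% and 9.29%, and for rpl39 57.9% and 41.8%. The highest scores of rpl4101, rpl3202, rpl35 and rpl4301 were 260, 309, 263 and 295 in wild type and 220, 215, 268 and 250 in ABP1d. Those of rpl2301, rpl702, rpl1101 and rpl39 were 339, 316, 393 and 285 in wild type and 279, 241, 436 and 279 in ABP1d. At rpl35 and rpl1101 the score was thus not lower in ABP1d. Near the floor of 200 a small difference in score can go with a large one in covered share. Of all members, 19 overlap another protein-coding gene and 9 lie wholly inside one. Of these 9, 7 were covered in wild type and 6 in ABP1d.

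Inside genes, Ser5P intervals rarely met the start and lay mostly in the later part of the body. With each gene cut into 10 equal segments, 0.640% of bases in the first segment were covered in wild type and 3.76% in ABP1d. Coverage was highest in the seventh segment, at 61.3% in wild type and 62.0% in ABP1d, and was 33.0% and 37.4% in the last. The 40S genes were also lowest in the first segment and highest in the seventh, with 1.46% and 2.33% in the first and 69.3% and 66.8% in the seventh. Over all protein-coding genes, which include these, the first segment was also lowest, but the contrast with the highest was smaller. Coverage there was 0.595% and 0.517% in the first segment and highest in the sixth, at 2.77% and 3.11%. Their segments are longer, with a median gene length of 1773 bp against 680 bp for the 83 genes. The first covered base lay at a median of 275 bp from the start in the 66 genes covered in wild type and of 225.5 bp in the 62 covered in ABP1d. Bases within 100 bp of the start were covered in 7 genes in wild type and in 8 in ABP1d. Nearest the start were rpl4302, rpl29, rpl22 and rpl13 in wild type and rpl13, rpl22, rpl2802 and rpl29 in ABP1d.

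**Figure D3:**
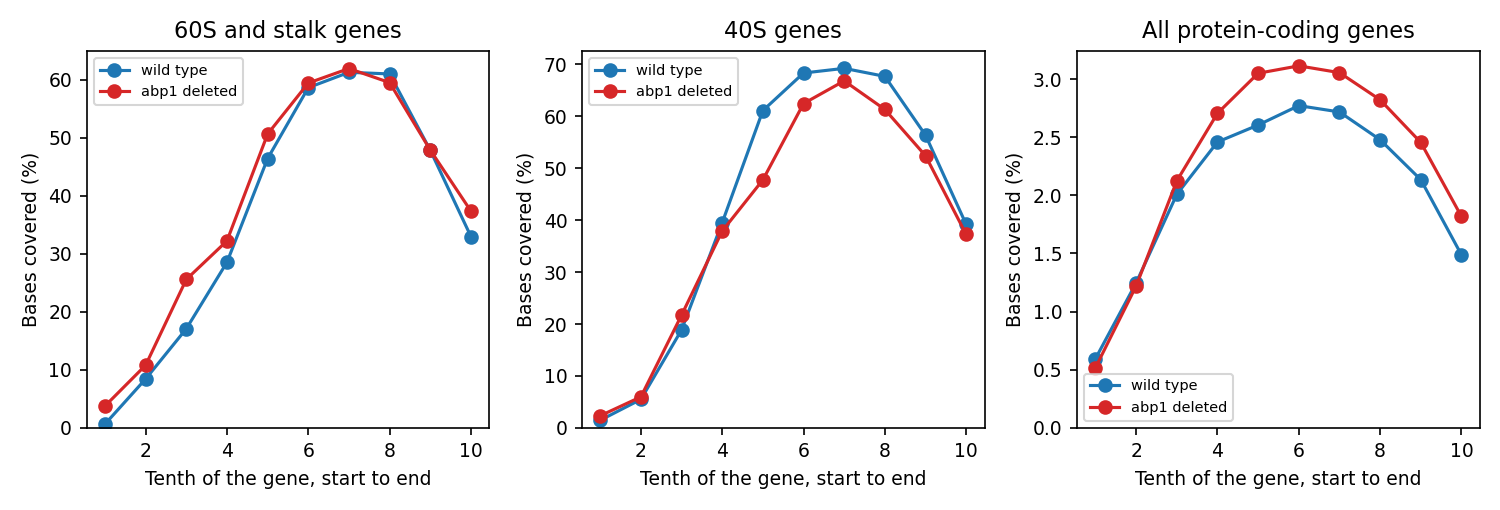
Share of bases covered (vertical axis, %, scaled separately in each panel) in each of 10 equal segments of the gene from start to end (horizontal axis), for 60S and stalk genes, 40S genes and all protein-coding genes, in wild type (blue) and ABP1d (red). Coverage in the 60S and stalk genes was lowest in the first segment, at 0.640% and 3.76%, and highest in the seventh, at 61.3% and 62.0%.

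By annotated part, 43.2% of the coding bases of the 83 genes were covered in wild type and 46.8% in ABP1d. The 3′ untranslated regions had 29.9% and 28.8%, introns 15.7% and 19.3%, and 5′ untranslated regions 0.791% and 3.72%. Upstream of the genes there was little: over the 500 bp before each start, outside other protein-coding genes, the wild-type list covered 4 bp and the ABP1d list 157 bp. In the 500 bp past the ends, again outside other protein-coding genes, 2085 bp and 2595 bp were covered, at 25 genes in each list. With bases in other genes counted too, it was 34 genes in wild type and 33 in ABP1d.

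Members without an intron were covered more often than members with one. Of the 39 genes without an intron 37 were covered in each list, the exceptions being rpl3201 and rpl3402. Of the 44 genes with an intron 29 were covered in wild type and 25 in ABP1d. Over all protein-coding genes 9.50% of those without an intron and 4.69% of those with one were covered in wild type, and 9.35% and 4.73% in ABP1d. The same order was seen at 40S genes, with 23 of 24 and 25 of 31 in each list. Length moved with it: the median coding length was 570 bp in members without an intron and 337.5 bp in members with one, and its part in the result was not tested beyond a split at the median. Among members with a coding length of 450 bp or more, 31 of 31 without an intron and 8 of 11 with one had an interval in each list. Below 450 bp, 6 of 8 without an intron had one in each list, and of 33 with one 21 in wild type and 17 in ABP1d. All 4 members covered in wild type alone have an intron.

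Paralogs of the same protein were often covered unequally. By symbol 70 members fall into 33 families of 2 or 3 copies, with rpl801 to rpl803 (uL2) kept apart from rpl8 (eL8), and the other 13 have no second copy. All 13 genes without a second copy, rpl6, rpl8, rpl13, rpl14, rpl22, rpl26, rpl29, rpl31, rpl35, rpl39, rpl42, rpl44 and rpp0, had intervals in both lists. In wild type every copy was covered in 20 families, some but not all copies in 12, and no copy in 1, the eL38 genes rpl3801 and rpl3802. In ABP1d the numbers were 19, 10 and 4, the added families being those of P1, P2 and eL37 (rpl3702 and rpl3703). Families in which 1 copy was bare in both lists while another was covered were rpl1, rpl16, rpl25, rpl27, rpl32, rpl34, rpl35A, rpl36 and rpl41. The bare copies were rpl102, rpl1601 and rpl1603, rpl2502, rpl2702, rpl3201, rpl3402, rpl35A02, rpl3602 and rpl4102.

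The contrast in covered share within such pairs was wide. Of the uL23 genes, rpl2501 was covered over 52.5% in wild type and 47.3% in ABP1d and rpl2502 over none. Of the eL34 genes, rpl3401 had 54.5% and 74.3%. Of the eL41 genes, rpl4101 had 63.6% and 17.1%, although the 2 encoded proteins are identical. The highest scores of rpl2501, rpl3401 and rpl4101 were 347, 323 and 260 in wild type and 340, 311 and 220 in ABP1d. Among other such copies rpl101 scored higher, with 450 and 880. No score is below 200, so how far a bare copy lies below its covered paralog is unknown. Pairs with both copies covered could differ as much: rpl901 had 67.4% in wild type and 55.6% in ABP1d, and rpl902 had 13.1% and 5.78%. Of the eL30 genes, rpl3001 had 83.0% and 67.8%, and rpl3002 had 5.45% in wild type and none in ABP1d. In ABP1d rpl2802 was covered over 99.3% and rpl2801 over 15.7%, against 51.7% and 23.5% in wild type. That gap is wider in ABP1d, and rpl2802 lies in the chromosome III stretch.

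**Figure D4:**
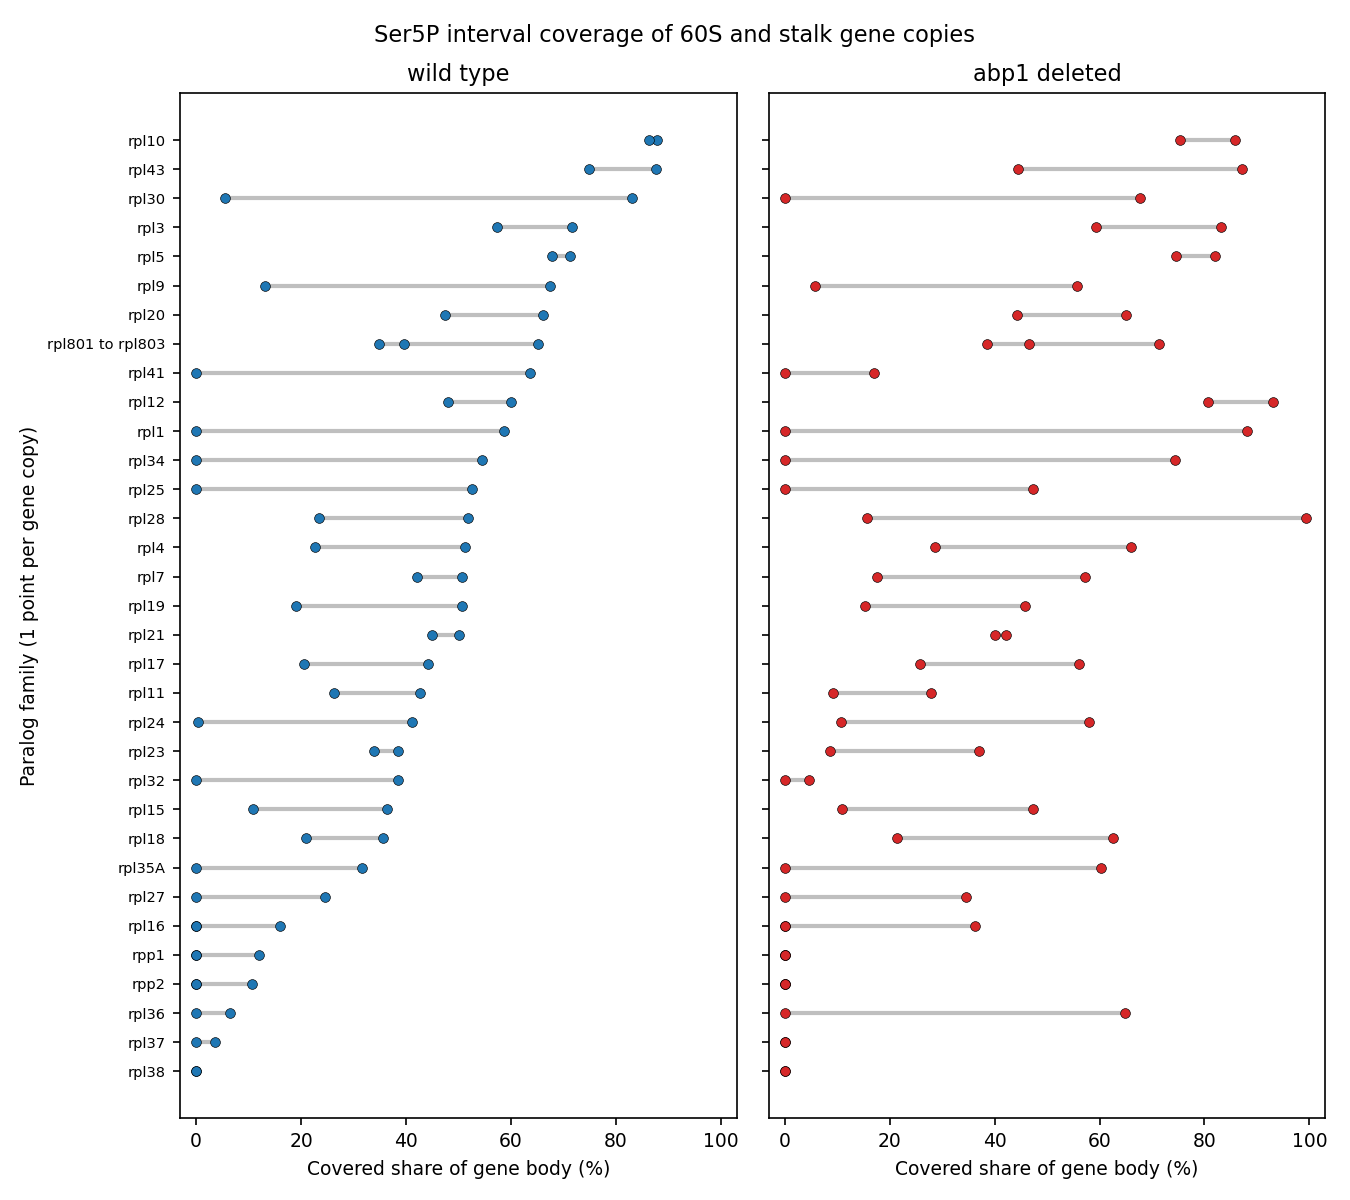
Covered share of the gene body (horizontal axis, %) of each copy in the 33 families with 2 or 3 copies, in wild type (left, blue) and ABP1d (right, red). Each row is a family, each point a copy and each grey bar the span between copies, with families ordered by their highest wild-type share; long bars that reach 0 mark families with a bare copy.

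Copies that share long identical sequence had nearly the same highest score. A read that lies wholly in such sequence matches both copies. No source used here gives the read length or how such reads were placed. Among pairs with an identical run of at least 36 bp and both copies covered, 15 in each list, the scores of the copies differed by a median of 0.423% of the higher score in wild type and of 1.60% in ABP1d, and 11 of 15 pairs lay within 5% in each list. Among covered pairs with shorter runs the median gap was 25.7% in wild type over 7 pairs and 43.6% in ABP1d over 6, with 1 pair and none within 5%. The uL3 genes share a run of 848 bp and had equal scores in each list. So had the uL11 genes, which share 482 bp, with 395 each in wild type and 877 each in ABP1d. Exceptions among the long runs were rpl2401 and rpl2402, with 333 and 201 in wild type, rpl2301 and rpl2302, with 339 and 395, and rpl802 against rpl801 and rpl803, with 786 against 642 and 560. Where the reads behind a score lie within such a run, the score cannot be assigned to 1 copy.

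Some of these pairs share little more than the 36 bp limit. The copies rpl15 and rpl1502 share at most 41 bp in a row and scored 391 and 392 in wild type and 473 and 471 in ABP1d. The copies rpl1901 and rpl1902 share 50 bp and scored 467 and 471 in wild type and 434 and 436 in ABP1d. In both pairs the highest interval of each copy met the shared run in both lists. This was not general: over the covered copies in pairs with such runs, each counted once per pair, the highest interval met the longest run in 18 of 32 in wild type and in 18 of 31 in ABP1d, and some repeated 36-mer in 25 and 27. The near-equal pairs rpl1701 and rpl1702, with 599 each in wild type, rpl501 and rpl502, and rpl401 and rpl402, with 553 and 581, had highest intervals away from their longest run in both lists. Those of rpl401 and rpl402 met no repeated 36-mer in wild type. The runs of the rpl15 and rpl19 copies are shown with 20 bases on each side, because the highest intervals of both copies meet them. Capitals mark the identical run, and the sequences are from the ASM294v3 RefSeq genome at chrIII:2100312-2100392 (plus strand), chrI:2203833-2203913 (minus strand), chrII:4123195-4123284 (minus strand) and chrIII:401203-401292 (plus strand).
rpl15: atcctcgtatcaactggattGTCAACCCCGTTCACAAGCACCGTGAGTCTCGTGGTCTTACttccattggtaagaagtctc
rpl1502: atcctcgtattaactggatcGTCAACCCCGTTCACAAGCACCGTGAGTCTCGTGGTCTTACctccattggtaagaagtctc
rpl1901: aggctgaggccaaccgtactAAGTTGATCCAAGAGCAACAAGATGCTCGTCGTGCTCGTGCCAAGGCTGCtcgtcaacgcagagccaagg
rpl1902: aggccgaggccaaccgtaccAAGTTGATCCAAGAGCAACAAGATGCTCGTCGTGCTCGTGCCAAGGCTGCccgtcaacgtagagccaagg
Of the 66 genes covered in wild type 64 had covered bases outside repeated 36-mers, and of the 62 in ABP1d 61 had. Of all covered bases 76.3% in each list lay outside them. Such bases can belong to an interval that also meets a repeat, as at rpl1902 in ABP1d, where 57 of 107 covered bp lay outside. In wild type rpl1001, rpl1201, rpl1702 and rpl302 had no interval free of repeated 36-mers. In ABP1d the covered genes without one were rpl1002, rpl1101, rpl1201, rpl1202, rpl1502, rpl1902, rpl2102, rpl2401, rpl402 and rpl802.

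All 6 members inside a stretch of chromosome III had more covered length in ABP1d. The stretch runs from the left end of rpl3601 to the right end of rpl1201 and was chosen on these data, so what follows is a description. It holds 75 protein-coding genes, of which 15 were covered in at least 1 list. All 15 had more covered bp in ABP1d, and 0.00% of the 75 had more in wild type. The 6 members among them are rpl3601, rpl35A01, rpl101, rpl1202, rpl2802 and rpl1201, with 1685 bp covered in wild type and 3111 bp in ABP1d, or 44.1% and 81.4% of their length. The difference was largest at rpl3601, for eL36, with 35 of 540 bp in wild type and 350 bp in ABP1d. At rpl2802, for uL15, the values were 301 and 578 of 582 bp. The difference in covered share was 28.6 to 58.3 points at the 6 members, with a median of 32.8, and 1.74 to 80.0 points at the 9 other covered genes of the stretch, with a median of 11.5. At least 20 points more in ABP1d were seen at all 6 members and at 3 of the 9 others, or 12.0% of the 75 genes. A share depends on gene length, whose median was 589.5 bp over the 6 members and 1776 bp over the 75 genes. In bp the difference at the members was 171 at rpl35A01 to 315 at rpl3601. Among the 9 others it was smallest at bpb1, with 0 bp in wild type and 35 in ABP1d. It was largest at scw1, with 0 and 1420 bp, so the order of the shares is not an order of covered bp.

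Some of the intervals behind these values reach beyond the member. The interval that gives rpl35A01 its ABP1d score of 1016 is 3200 bp wide, with 2870 bp outside the gene, and also meets eft202, an elongation factor 2 gene with a near-identical copy. The interval behind rpl101's score of 880 also meets rrp5. Since rpl1201 and rpl1202 share 482 bp, their values are not separate observations. Of the paralogs that lie elsewhere, rpl2801 had 140 bp in wild type and 94 bp in ABP1d. The others, rpl102, rpl35A02 and rpl3602, had no interval in either list, so a difference below the score floor of 200 would not show.

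Outside the stretch the 77 other members had similar covered lengths in the lists, with 21123 bp in wild type and 21349 bp in ABP1d, or 35.8% and 36.2%. The covered length was greater in ABP1d at 29 and in wild type at 30. The median difference over the 60 with an interval was -0.237 points, and 0.414 points over the 397 such protein-coding genes outside the stretch. Of the 14 members elsewhere on chromosome III 5 had more in ABP1d and 6 more in wild type. The nearest on either side were rpl1702, 23.5 kb before the stretch, with 20.5% in wild type and 25.8% in ABP1d, and rpl2302, 620 kb past it, with 38.5% and 37.1%.

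**Figure D5:**
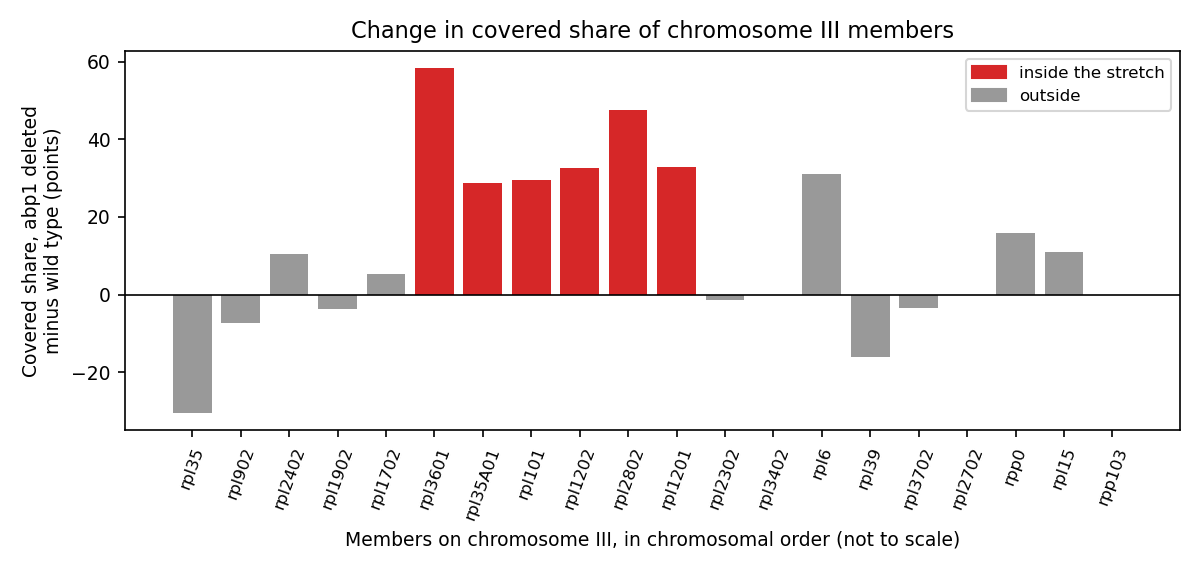
Difference in the covered share of the gene body, ABP1d minus wild type (vertical axis, percentage points), for the 20 members on chromosome III in chromosomal order (horizontal axis, not to scale). The 6 members inside the stretch (red) lie 28.6 to 58.3 points above 0, while those outside it (grey) lie on both sides of 0 and reach 31.0 points at rpl6.

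Genes that assemble the 60S subunit were rarely covered. Of 34 names on a list of assembly factors 29 matched the annotation, and 2 of these had an interval in each list, rlp7, an assembly factor related to the ribosomal protein uL30, and nog2, a GTPase of 60S maturation. The gene rlp7 had 655 of 1137 bp covered in wild type and 680 bp in ABP1d, and nog2 had 15 and 107 of 2178 bp. That share is 6.90%, close to the 7.18% and 7.12% of all protein-coding genes. Of 8 listed regulators of ribosomal protein genes, tbp1, the TATA-binding protein gene, and sfp1 had intervals in both lists. They were covered over 54.6% and 70.2% in wild type and over 66.1% and 83.0% in ABP1d, and rrn7, fhl1, ifh1, tor2, sck2 and psk1 had no interval. The RNase P and MRP genes rpp1, rpp21 and rpp40 had none in either list.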

How the data were processed

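Intervals came from 2 lists, 1 per genotype. Groups follow the genotype labels; the title of the mutant ChIP spells the mutant APB1d. The submitters' processing notes name Bowtie 0.12.5. No source used here gives the peak caller, genome build, use of inputs or scaling. The lists' coordinates were read on ASM294v3. The deposited columns are chromosome, start, end and the authors' score, whose unit is not stated. It was used within 1 list to order and describe intervals. It belongs to a whole interval, which can reach past a gene.

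Intervals were intersected with genes of ASM294v3 (RefSeq) by at least 1 bp, with Python 3.11.15, numpy 2.4.6 and Biopython 1.88. No test was possible, and counts are set beside those of all protein-coding genes. Depth is unknown. Repeats are 36-mers or 50-mers found more than once on either strand. Coverage counting was tested on simulated data.

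Members, lists, roles and alternatives were chosen with earlier results of these data known. Named are the stalk genes, members in 1 list or none, the 8 largest gains and losses, the 5 highest scores per list, the 4 nearest the start, members of the stretch, and unequal paralogs; others serve as examples.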

Additional observations from a re-analysis of the deposited data

How the results depend on the processing

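The 6 counts over the 83 genes (covered in each list, covered in 1 list alone, more covered bp in either list) were recomputed under 11 alternatives, and 61 of the 66 values stayed within 1.5 times the reported count. That range hides a turned order: 35 members with more covered bp in ABP1d and 30 with more in wild type became 28 and 37 with the ABP1d list cut by score to the covered length of the wild-type list, and 33 and 33 with intervals up to 100 bp apart joined. Outside the chromosome III stretch they were 29 and 30. The counts covered in 1 list alone are small and moved. The count in wild type alone, 4 as reported, was 9 with the ABP1d list cut by score to the covered length of the wild-type list. It was 2 among the 64 members that overlap no other protein-coding gene and 2 among rpl genes alone, where fewer members are counted. The count in ABP1d alone, 0 as reported, was 1 with the upper 50% of each list by score and 2 with at least 50 covered bp. No paired analysis was possible because each genotype has 1 list, and for the same reason no replicate could be left out. The floor of 200 in the score limits what can be seen: a gene below it in 1 list and above it in the other differs by an unknown amount, and without a depth no limit can be set for genes with no interval.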

Other observations

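The HomolD box was also found before genes that encode no ribosomal protein by symbol. There were 49 such genes, and 24 of them were covered in wild type and 23 in ABP1d, with 23 in both, where 7.18% and 7.12% of all protein-coding genes did. Several serve translation: tef101, tef102 and tef103 for elongation factor 1 alpha, tef3 for elongation factor 3, tif1 for initiation factor 4A, and cpc2, which encodes the ribosome-bound protein RACK1. Others were the ribosome-associated chaperone gene sks2, covered over 97.2% in wild type and 98.2% in ABP1d, and the glycolytic gene tpi1, with 92.1% and 87.6%. The fusion genes ubi2 and ubi5, which encode ubiquitin joined to a ribosomal protein and so lie outside the symbol rule, also had the box. For ubi5 the wild-type list covered 287 bp and the ABP1d list 280 bp, and for ubi2 they covered 3 bp and none. Of the 49 genes 20 had the box beginning 60 to 40 bp before the annotated start, against 48 of 54 for the 60S and stalk genes. This count was made after seeing the member promoters.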
